A study of Homo sapiens with 6 samples.

Results

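The heat shock transcription factors HSF1 and HSF2, and the chaperone genes HSPH1, HSP90AA1, HSP90AB1, HSPD1, HSPE1, HSPB1, HSPB8 and BAG3, were followed in MDA-MB-231 cells, an established human triple-negative breast cancer line. Genes were chosen by symbol, through the probe sets that the platform annotation pairs with that symbol alone. Of the 10 listed genes, 9 were measured, each by 1 probe set, among 18417 genes tested. No probe set carried the symbol HSF2, and HSF2 was not analysed here. Treated cultures received 10 µM YW3-56 for 8 h, and the others received the vehicle DMSO, whose duration the labels do not give separately. Both groups held 3 biological replicates of the same line, grown at 37 °C with 10% serum and treated near 70% confluence. YW3-56 inhibits peptidylarginine deiminases, which turn protein arginine residues into citrulline. The question addressed here is how the transcripts of heat shock genes differ between treated and vehicle cultures.

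HSF1 is the main transcription factor of the heat shock response. It is held inactive by chaperones, and when unfolded proteins draw these away it forms trimers that bind heat shock elements, which are inverted repeats of the letters GAA. Its known targets include the chaperones described here. HSP90 matures kinases and receptors, HSP110 (HSPH1) recharges HSP70, and BAG3 couples HSP70 to small heat shock proteins and to autophagy. HSP60 (HSPD1) and HSP10 (HSPE1) form the folding chamber of mitochondria.

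In cells treated with YW3-56, 8 of the 9 measured genes were higher, and HSF1, the factor itself, was lower. BAG3 rose most, by 1.50 ± 0.09 (SE, n = 3 arrays per group) on the log2 scale, which is 2.82-fold, and HSPH1 followed at 1.94-fold. The small heat shock genes HSPB1 and HSPB8 and the mitochondrial pair HSPD1 and HSPE1 rose between 1.46-fold and 1.67-fold. The rises of the cytosolic HSP90 genes were the smallest of the 8, at 1.19-fold for HSP90AA1 and 1.22-fold for HSP90AB1, and HSF1 was 1.21-fold lower. The median log2 fold change was 0.58 over the 9 genes, against -0.05 over all genes tested. At an adjusted p under 0.05, limma called all 9 genes, 8 as higher and HSF1 as lower. Of all genes 21.4% were called, 9.84% as higher and 11.5% as lower. In all 9 genes the arrays of the 2 groups did not overlap, as in 36.9% of all genes, and in 8 of them every treated array lay above every DMSO array, as in 15.5% of all genes. Only BAG3 was both called and at least 2-fold higher, as were 0.896% of all genes. Leaving out YW3-56 replicate 3 lowered the count called higher to 5, although all 8 kept their direction. The RNA came from whole cultures, so a change in the number of cells expressing a gene and a change in RNA per cell cannot be told apart.

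**Figure D1:**
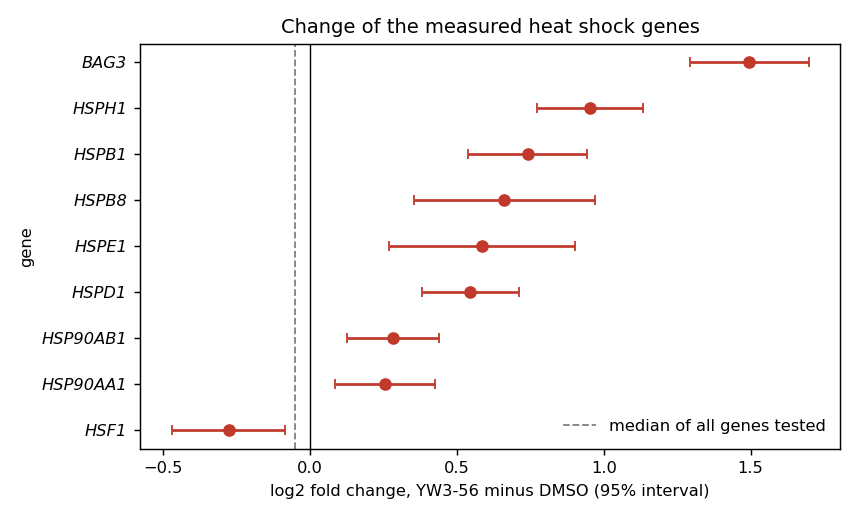
Log2 fold change (YW3-56 minus DMSO, x axis) of the 9 measured heat shock genes (y axis), with 95% intervals from limma and the median of all 18417 genes as a dashed line. BAG3 lies farthest to the right at 1.50 and HSF1 is the gene left of 0, at -0.28.

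Promoter windows of the genes were searched for heat shock elements, because HSF1 binds them and most of the genes rose together. The windows were taken from RefSeq (GRCh38.p14) and run from 250 bases before to 50 bases after each annotated start. Windows were given for 9 of the 10 listed genes, HSF1 being the one without. The letters searched were GAANNTTC and TTCNNGAA, each of which reads the same on both strands, and 3-unit forms, in which GAANNTTC is followed by NNGAA or TTCNNGAA by NNTTC, on both strands, so that a 3-unit form contains a shorter one. A shorter element was found for 5 of the 9 genes, namely HSP90AA1, HSP90AB1, HSPD1, HSPB1 and HSPB8, and a 3-unit element for HSP90AA1, HSP90AB1 and HSPD1. Of all 27305 genes in the table, 16.2% had a shorter element in at least 1 window and 0.608% a 3-unit one. Counted by window, 5 of the 14 windows of these 9 genes (35.7%) held a shorter element and 3 a 3-unit one, against 13.5% and 0.49% of all 35116 windows. The matches outside the longer stretches given further on are shown with their flanks, 5′ to 3′, with the element in capitals.
HSP90AB1, first element (start 3), chr6:44247772-44247796, plus strand: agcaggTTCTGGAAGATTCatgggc
HSP90AB1, second element (start 3), chr6:44247825-44247849, plus strand: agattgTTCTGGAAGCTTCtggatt
HSPD1 (start 2), chr2:197500062-197500090, minus strand: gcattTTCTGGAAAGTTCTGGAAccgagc
HSPB8, first element, chr12:119178837-119178856, plus strand: acctccGAATATTCctgtga
HSPB8, second element, chr12:119178929-119178948, plus strand: ccagaaGAAGTTTCtaggcg
The HSPD1 run holds 18 bases of adjoining units and begins 245 bases before start 2 of the gene. The first HSPB8 element begins 88 bases before the start, and the second lies after the start, at bases 5 to 12. Both HSP90AB1 elements lie before start 3, at 165 and 112 bases from it, and no match was found before its other starts. Starts are numbered as in the RefSeq table. A match in these letters describes the sequence and shows no binding. Known HSF1 targets are among these genes, so shares above those of all genes may follow from how they were chosen.

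The 250 bases before a start are given in full for HSP90AA1, which holds the 3-unit element, for HSPB1, which holds 1 shorter element, and for BAG3, the gene with the largest rise, in which none of the letters searched was found. Capitals mark the elements, and the genome strand is that of the gene.
HSP90AA1 (start 2), chr14:102087045-102087294, minus strand: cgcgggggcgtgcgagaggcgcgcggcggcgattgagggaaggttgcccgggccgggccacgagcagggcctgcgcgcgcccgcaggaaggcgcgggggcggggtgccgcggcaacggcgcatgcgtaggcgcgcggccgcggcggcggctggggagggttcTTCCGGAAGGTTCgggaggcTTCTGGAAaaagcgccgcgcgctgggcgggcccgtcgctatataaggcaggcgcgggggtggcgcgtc
HSPB1, chr7:76302423-76302672, plus strand: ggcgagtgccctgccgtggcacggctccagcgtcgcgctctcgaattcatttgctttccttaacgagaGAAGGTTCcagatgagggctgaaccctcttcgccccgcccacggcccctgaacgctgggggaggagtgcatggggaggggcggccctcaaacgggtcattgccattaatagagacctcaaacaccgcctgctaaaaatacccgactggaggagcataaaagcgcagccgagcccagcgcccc
BAG3, chr10:119651130-119651379, plus strand: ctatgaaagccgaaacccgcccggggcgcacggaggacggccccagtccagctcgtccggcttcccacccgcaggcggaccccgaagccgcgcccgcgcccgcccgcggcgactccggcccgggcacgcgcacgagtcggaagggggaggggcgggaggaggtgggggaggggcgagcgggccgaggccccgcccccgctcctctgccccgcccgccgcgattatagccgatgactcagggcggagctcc
In HSP90AA1 the 3-unit element begins 88 bases before the start and the shorter one 68 bases before it. The HSPB1 element begins 182 bases before the start. The windows of HSPH1, HSPE1 and HSF2 held no match either, which says only that these letters are not in them. HSPD1 and HSPE1 are neighbours read in opposite directions, and their windows at the facing starts, which lie 105 bases apart, share 204 bases.

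Pearson correlations over genes, which are not independent replicates, were 0.990 to 0.997 for arrays of the same group and 0.980 to 0.985 for a YW3-56 with a DMSO array. All values are deposited RMA values on the log2 scale, and the 3 arrays per group limit their precision. As a check of the labelled line, VIM, CD44, AXL, CAV1 and MSN, markers of mesenchymal breast cancer lines, lay above the 99th percentile of mean level over all genes. Among luminal and epithelial markers, PGR, CDH1 and ESR1 were dim, at percentiles 8.88, 14.1 and 22.4, while GATA3, EPCAM and ERBB2 lay at 35.2, 39.1 and 65.5. Of the markers of other cell types, PTPRC, ALB and PECAM1 lay between percentiles 3.34 and 13.8, and COL1A1 at 62.3.

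HSF1 (probe set 8148824) was the regulator measured, and it fell slightly. Its values were 10.85, 10.75 and 10.61 on the YW3-56 arrays, against 11.07, 11.01 and 10.96 on the DMSO arrays. All 3 treated arrays lay below all 3 DMSO arrays, although the gap between the nearest ones was small. The log2 fold change was -0.28 ± 0.08 (SE, 95% interval -0.47 to -0.08), which is 1.21-fold lower, with a limma adjusted p of 0.0497. This call sat at the threshold. It was lost after a second quantile normalization (adjusted p = 0.0572) and after centring each array on its median (adjusted p = 0.169), and also without YW3-56 replicate 2 (0.126) or 3 (0.193) and without DMSO replicate 1 (0.0755), 2 (0.134) or 3 (0.0661). The direction held under all 16 alternatives, between -0.33 and -0.22. Of these, only the second quantile normalization and the centring could have turned it, since HSF1 has 1 probe set and its groups did not overlap.

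Among genes that act with HSF1 or on it, some rose and none was called lower. Of 8 measured genes in a list of its family and regulators, limma called 3 higher and 0 lower, also 0 lower at an unadjusted p under 0.05. Over all genes, 9.84% were called higher and 11.5% lower. The list's median log2 fold change was 0.14, against -0.05 over all genes. EP300 and CREBBP, the related acetyltransferases p300 and CBP of which p300 is known to acetylate HSF1, rose by 0.88 ± 0.08 and 0.67 ± 0.07 (SE, limma adjusted p = 0.0004 and 0.000658). FBXW7, a substrate adaptor of a ubiquitin ligase that can target HSF1, rose by 0.42 ± 0.12 (adjusted p = 0.0473), a call lost when any single YW3-56 array, DMSO replicate 2 or DMSO replicate 3 was left out (adjusted p from 0.085 to 0.151) and under both other scalings (0.0688 and 0.0657). The paralogue HSF4 changed by -0.19 and HSBP1, which binds HSF1 trimers, by 0.07, and neither passed.

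BAG3 (probe set 7930921), the co-chaperone of selective autophagy, had the clearest rise. Its values were 12.50, 12.43 and 12.51 on the YW3-56 arrays, against 10.95, 11.14 and 10.86 on the DMSO arrays. The groups were well apart, with every treated array more than 1 log2 unit above every DMSO array. The log2 fold change was 1.50 ± 0.09 (SE), with a limma adjusted p of 7.49e-05, and it ranked 51 among the rises of all 18417 genes. It was called under all 16 alternatives, with log2 fold changes from 1.41 to 1.57.

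None of the other BAG genes passed in the comparison of all 6 arrays. BAG1, BAG2, BAG4, BAG5 and BAG6 changed by -0.06, 0.25, 0.03, -0.09 and -0.14 on the log2 scale. BAG2 (adjusted p = 0.0756) passed under 5 of its 16 alternatives, among them a second quantile normalization (0.0457) and the fit without DMSO replicate 1 (0.0423). In the list of BAG genes and BAG3 partners, SQSTM1, the autophagy receptor p62, was the 1 of 8 measured genes that rose, by 0.94 ± 0.10 (limma adjusted p = 0.000542), a share near the 9.84% of all genes called higher. 0 were called lower, nor were any at an unadjusted p under 0.05, and the median was -0.02, against -0.05 over all genes. SYNPO2, an actin-linked partner of BAG3, changed by 0.34 without passing (adjusted p = 0.0589), and it passed with the replicate number as a block (adjusted p = 0.0214), which made the list's count 2, and also under both other scalings (0.0113 and 0.0187) and without DMSO replicate 3 (0.0169). SYNPO2 is dim, at percentile 19.9 of mean level.

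HSPH1 (probe set 7970864), the HSP110 chaperone that exchanges nucleotide on HSP70, also rose. Its values were 13.37, 13.34 and 13.49 on the YW3-56 arrays, against 12.37, 12.48 and 12.50 on the DMSO arrays. The groups did not overlap, and the treated arrays lay nearly 1 log2 unit higher on average. The log2 fold change was 0.95 ± 0.08 (SE, limma adjusted p = 0.000236), and it was called under all 16 alternatives.

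Its relatives rose as well. The list of HSP110 relatives and nucleotide exchange factors had 7 measured genes, of which 4 rose and 1 fell, against 9.84% higher and 11.5% lower over all genes, and its median was 0.43. HSPA4L, a further HSP110 protein, rose by 1.24 ± 0.09 (adjusted p = 0.00015), and HSPA4, the third cytosolic one, by 0.43 ± 0.08 (adjusted p = 0.00506). HYOU1, the HSP110 of the endoplasmic reticulum, rose by 0.82 ± 0.08 (adjusted p = 0.000545). The fourth rise was that of GRPEL2 and the fall that of GRPEL1, exchange factors of mitochondrial HSP70 described with that organelle. At an unadjusted p under 0.05 limma gave 2 lower genes, the second being HSPBP1, an exchange factor of cytosolic HSP70, at -0.23 ± 0.08 (SE, adjusted p = 0.0682).

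**Figure D2:**
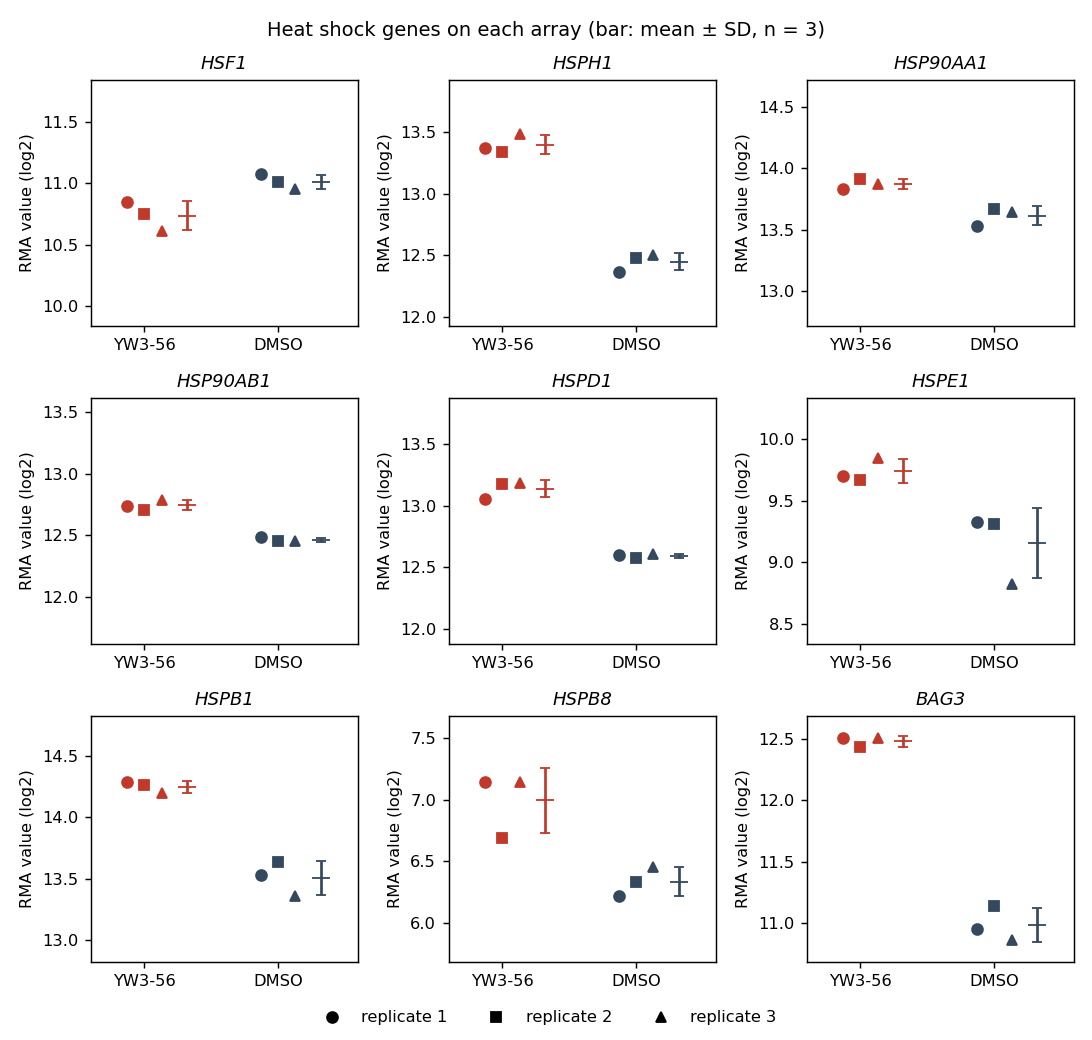
Deposited RMA values (log2, y axis) of the 9 genes on the 3 YW3-56 and 3 DMSO arrays, with marker shape for the replicate number and the bar giving mean ± SD (n = 3); every panel spans 2 log2 units. In 8 panels the YW3-56 points lie above the DMSO points, and in that of HSF1 they are the lower ones.

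The cytosolic HSP90 genes, which encode the stress-inducible alpha form (HSP90AA1, probe set 7981335) and the beta form (HSP90AB1, probe set 8119993), rose by small amounts from high levels. HSP90AA1 had values of 13.83, 13.91 and 13.87 on the YW3-56 arrays, against 13.53, 13.67 and 13.64 on the DMSO arrays. HSP90AB1 had values of 12.74, 12.70 and 12.78 on the YW3-56 arrays, against 12.48, 12.45 and 12.45 on the DMSO arrays. Neither gene's groups overlapped. The log2 fold changes were 0.25 ± 0.07 for HSP90AA1 (SE, limma adjusted p = 0.0421) and 0.28 ± 0.07 for HSP90AB1 (adjusted p = 0.02). The HSP90AA1 call was lost whichever array was left out, with adjusted p from 0.0687 to 0.144. The HSP90AB1 call was lost without YW3-56 replicates 1, 2 or 3 (adjusted p = 0.0587, 0.056 and 0.0951) and without DMSO replicate 2 (0.0773). Both genes have close copies in the genome, and probes shared with these cannot be separated here.

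Among HSP90 paralogues and co-chaperones, 14 genes were measured, of which 8 rose, 2 fell and 4 did not pass. Over all genes 9.84% were called higher and 11.5% lower, so the 2 falls are near the share of all genes. The median of the list was 0.36. HSP90B1, the paralogue of the endoplasmic reticulum, rose by 0.83 ± 0.08 (limma adjusted p = 0.000411). CHORDC1, a stress-sensitive HSP90 partner, rose by 0.63 ± 0.09 (adjusted p = 0.0018), CACYBP, which binds the ubiquitin ligase SIAH1, by 0.58 ± 0.09 (0.00261), and FKBP4, a receptor co-chaperone, by 0.58 ± 0.09 (0.00258). With probe sets averaged, the CACYBP change was 0.35 (0.0395). The remaining rises were those of SUGT1 (0.57), PPID (0.39), STIP1 (0.38), which links HSP70 to HSP90, and PTGES3 (0.33), the co-chaperone p23. PPP5C, a phosphatase bound to HSP90, fell by 0.36 (adjusted p = 0.00927). The mitochondrial paralogue TRAP1 fell by 0.32 ± 0.07 (adjusted p = 0.0123), a call lost without YW3-56 replicate 3 (0.0628) and when its probe sets were averaged (log2 fold change -0.21, 0.106). CDC37, which brings kinases to HSP90, changed by -0.07 and did not pass. The calls of PPID and PTGES3 were also lost when some single arrays were left out, with adjusted p from 0.0524 to 0.0811 for PPID (YW3-56 replicate 1 or 3, DMSO replicate 2 or 3) and of 0.0723 and 0.067 for PTGES3 (YW3-56 replicate 3, DMSO replicate 2).

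The mitochondrial chaperonin genes rose together. HSPD1 (probe set 8058052), whose product HSP60 forms the folding chamber, had values of 13.06, 13.18 and 13.18 on the YW3-56 arrays, against 12.60, 12.58 and 12.61 on the DMSO arrays. HSPE1 (probe set 8047223), whose product HSP10 is its lid, had values of 9.70, 9.67 and 9.85 on the YW3-56 arrays, against 9.33, 9.31 and 8.83 on the DMSO arrays. The groups did not overlap for either gene, but DMSO replicate 3 stood well below the other DMSO arrays in HSPE1. The log2 fold changes were 0.55 ± 0.07 for HSPD1 (SE, limma adjusted p = 0.00146) and 0.58 ± 0.14 for HSPE1 (adjusted p = 0.0185). Without DMSO replicate 3 the HSPE1 change was 0.42, and without YW3-56 replicate 3 its call was lost (adjusted p = 0.0807). HSPD1 was called under all 16 alternatives. Both genes have many pseudogene copies, and probes shared with these cannot be separated here.

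Among other folding and quality control genes of mitochondria, 11 were measured, of which 1 rose and 5 fell, and the median was -0.14. The 1 rise is near the 9.84% of all genes called higher, and 11.5% of all genes were called lower. GRPEL1 fell by 0.69 on the log2 scale (limma adjusted p = 0.00308), and DNAJA3, an HSP70 co-chaperone, by 0.42 (adjusted p = 0.00711). Smaller falls were those of TRAP1, given above, of the protease subunit CLPP (-0.27 ± 0.07, adjusted p = 0.0243) and of the protease AFG3L2 (-0.24 ± 0.07, 0.0392). GRPEL2, the stress-related paralogue of GRPEL1, rose by 0.44 ± 0.10 (0.0134). HSPA9, the mitochondrial HSP70 itself, changed by -0.08 ± 0.07 and did not pass. LONP1, a matrix protease, changed by 0.32 (0.0617) and passed with the replicate number as a block (0.0182), which made 2 rises. The call of AFG3L2 was lost whichever array was left out, that of CLPP with any array but DMSO replicate 1 left out, and that of GRPEL2 without YW3-56 replicate 2 or 3 or DMSO replicate 2. The list then held between 2 and 4 falls, the lowest count being that without YW3-56 replicate 3, and between 0 and 2 rises, with 0 in the 3 cases that ended the GRPEL2 call and 2 without DMSO replicate 3.

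Of the small heat shock proteins, which hold unfolded proteins until HSP70 can act, HSPB1 (HSP27) was among the brightest genes on the arrays and HSPB8, the partner of BAG3, among the dimmer ones. HSPB1 (probe set 8133721) had values of 14.29, 14.26 and 14.19 on the YW3-56 arrays, against 13.53, 13.63 and 13.36 on the DMSO arrays. HSPB8 (probe set 7959102) had values of 7.15, 6.69 and 7.15 on the YW3-56 arrays, against 6.22, 6.33 and 6.45 on the DMSO arrays. The groups of both genes were separate, although YW3-56 replicate 2 came close to the DMSO arrays in HSPB8. The log2 fold change was 0.74 ± 0.09 for HSPB1 (SE, limma adjusted p = 0.000943) and 0.66 ± 0.13 for HSPB8 (adjusted p = 0.00953). HSPB1 was called under all 16 alternatives. HSPB8 lay at percentile 20.4 of mean level, and its call was lost in a per-gene variance test without moderation (adjusted p = 0.0808).

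Further small heat shock genes were mostly dim. Of 6 measured, 5 lay below percentile 20 of mean level. The list's median was -0.02, and limma called 1 gene higher and 0 lower, again 0 lower at an unadjusted p under 0.05, counts near the 9.84% and 11.5% of all genes. HSPB6 (HSP20), also known as a BAG3 partner, rose by 0.75 ± 0.14 (limma adjusted p = 0.00734). CRYAB, the alpha B-crystallin that HSF1 can induce, changed by 0.29 ± 0.12 without passing (adjusted p = 0.146), and with the replicate number as a block it passed (0.0259), which made 2 rises. HSPB3, HSPB7 and HSPB9 changed by -0.03, -0.04 and -0.01, and ODF1 by -0.11.

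Changes of related genes were set against each other within each array, in 5 pairs. The difference of 2 log2 fold changes was -0.03 for HSP90AA1 minus HSP90AB1 (95% interval -0.21 to 0.16), -0.04 for HSPD1 minus HSPE1 (-0.54 to 0.46) and -0.08 for HSPB8 minus HSPB1 (-0.66 to 0.50). In these 3 pairs the groups overlapped, and the two-sided exact permutation p was 0.9, 1 and 0.8. The sign turned without DMSO replicate 2 in the first pair, without DMSO replicate 3 in the second, and without YW3-56 replicate 2 or DMSO replicate 3 in the third. The intervals of the mitochondrial and small heat shock pairs are wide, so they leave room for differences of up to 0.54 and 0.66 on the log2 scale. HSPB8 was dimmer in DMSO cells (6.33) than ESR1 (6.82), while HSPB1 lay near the top of the scale (14.25 in YW3-56 cells, with a highest value on any array of 14.69), so either change may be compressed and their difference says little. The difference was 0.52 (0.28 to 0.77) for HSPH1 minus its paralogue HSPA4 and 1.56 (1.19 to 1.92) for BAG3 minus BAG1. In both pairs all 3 treated arrays lay above all 3 DMSO arrays. The exact permutation p was 0.1 for each, the smallest that 3 against 3 arrays can give, and 0.25 after Benjamini-Hochberg adjustment over the 5 pairs.

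**Figure D3:**
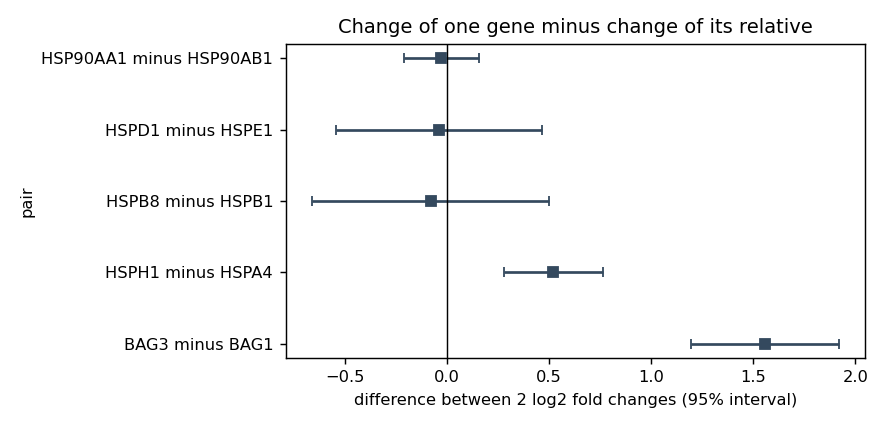
Difference between the log2 fold changes of 2 related genes (x axis, 95% interval) for the 5 pairs compared (y axis). The intervals of HSPH1 minus HSPA4 (0.28 to 0.77) and BAG3 minus BAG1 (1.19 to 1.92) lie right of 0, and the other 3 include 0. Intervals are from a t distribution and unadjusted. The exact permutation p of those 2 pairs was 0.1 each, and 0.25 after Benjamini-Hochberg adjustment.

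The wider set of known HSF1 targets mostly rose. A list of other targets, which overlaps the lists above, had 17 measured genes, of which limma called 14 higher and 0 lower (0 lower also at an unadjusted p under 0.05). Its median was 0.63, against -0.05 over all genes, of which 9.84% were called higher. The count was between 13 and 15 under the 16 alternatives. The largest rises were those of HSPA6, an inducible HSP70 (4.96 ± 0.17, limma adjusted p = 5.73e-06), DNAJB4, an HSP70 co-chaperone (2.63 ± 0.15, 5.75e-05), and ZFAND2A, a proteasome-associated protein (2.50 ± 0.10, 9.35e-06). HSPA8, the constitutive HSP70, changed by 0.15 ± 0.07 from a DMSO level of 14.29 and did not pass (adjusted p = 0.184). It passed with a trended and robust prior (adjusted p = 0.00418) and with a per-gene variance (0.027). HSPA1A and HSPA1B had no probe set with a single symbol and were not analysed here, and HSPA6 may share probes with the near-identical pseudogene HSPA7. In the RefSeq windows, a shorter heat shock element was found for 11 of 15 genes of this list that had a window, and a 3-unit one for 5, against 16.2% and 0.608% of all genes in the table. The shorter element was also found for 3 of 7 cytosolic chaperonin genes with a window and 2 of 4 other small heat shock genes, lists with few or no rises. It was found for 4 of 11 genes of the HSP90 list, 2 of 6 of the HSP110 list and 1 of 6 BAG genes and partners. The mitochondrial list had it in 1 of 8 and the HSF list in 0 of 7. Of these lists, only the HSP90 one held a 3-unit element, in 1 gene. The list of other targets was drawn up with earlier results of these data known, and it is no independent evidence of its direction. It holds known HSF1 targets, and HSF1 binds such elements, so its share of elements may also follow from how it was chosen.

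The cytosolic chaperonin TRiC, which folds actin and tubulin, gave no call. Of its 8 subunit genes, limma called 0 at an adjusted p under 0.05 and 1 (CCT5, lower) at an unadjusted p under 0.05, and a per-gene variance test called 0. The median was -0.11. CCT5, CCT2 and CCT8 changed by -0.20, -0.15 and -0.11 (adjusted p = 0.0985, 0.237 and 0.337), and TCP1, a known HSF1 target among them, by 0.04. CCT5 was called lower under 3 alternatives, with adjusted p from 0.0133 to 0.0331. Over all 8 lists, 68 of 80 distinct genes were measured, and 25 rose and 6 fell, against 9.84% higher and 11.5% lower over all genes.

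**Figure D4:**
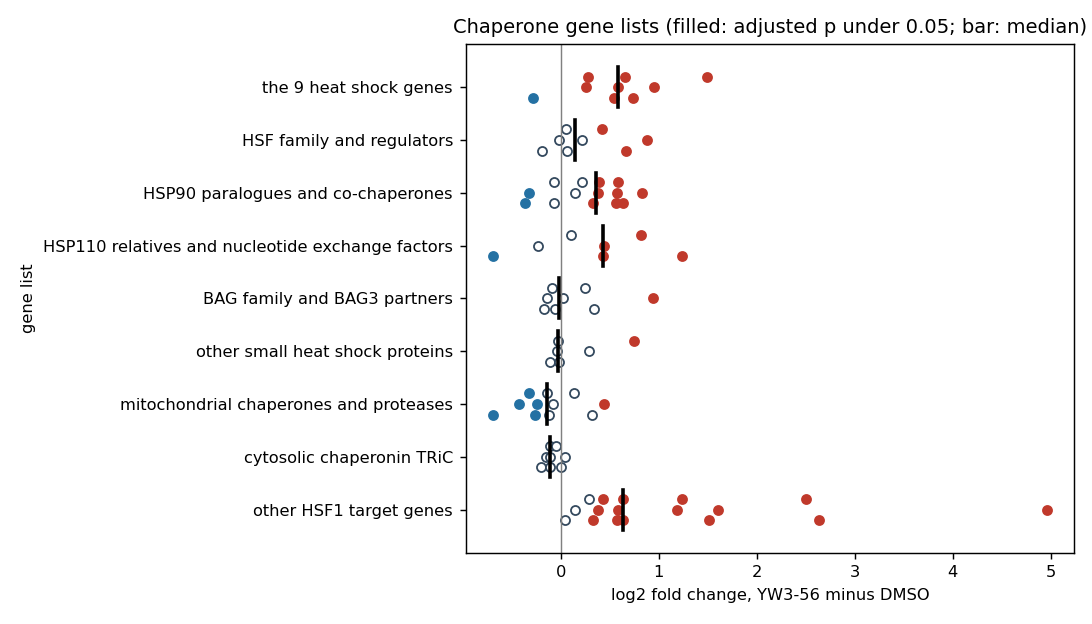
Log2 fold change (x axis) of each measured gene in the 9 heat shock genes and 8 related lists (y axis); filled points passed an adjusted p under 0.05, red for higher and blue for lower in YW3-56, and bars mark medians. The medians of the 9 genes (0.58) and of the other HSF1 targets (0.63) lie right of 0, while those of TRiC (-0.11) and the mitochondrial list (-0.14) lie left of it.

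The genes most like BAG3 over the 6 arrays, by the root mean square difference of values relative to each gene's own DMSO mean, were PNRC1 (0.0883), HBP1 (0.116), MBNL2 (0.116), STARD4 (0.119) and DNAJB1 (0.123). Their log2 fold changes lay between 1.41 and 1.60, near that of BAG3 because of how they were chosen. DNAJB1, the co-chaperone of stress-induced HSP70, was the heat shock gene among them, at 1.60 ± 0.12. The genes most like HSF1 were TRIOBP (0.0162), PPARGC1A (0.0262), PLEKHH2 (0.0275), GNA11 (0.0329) and PDE4A (0.033), with log2 fold changes, again near by choice, between -0.30 and -0.27. Of these, PPARGC1A passed (limma adjusted p = 0.0331), but not without YW3-56 replicate 2 or 3 or DMSO replicate 2 (0.0965 to 0.141), nor under either other scaling. With the replicate number as a block, TRIOBP, PLEKHH2, GNA11 and PDE4A passed as well, with adjusted p from 0.0238 to 0.0316.

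**Figure D5:**
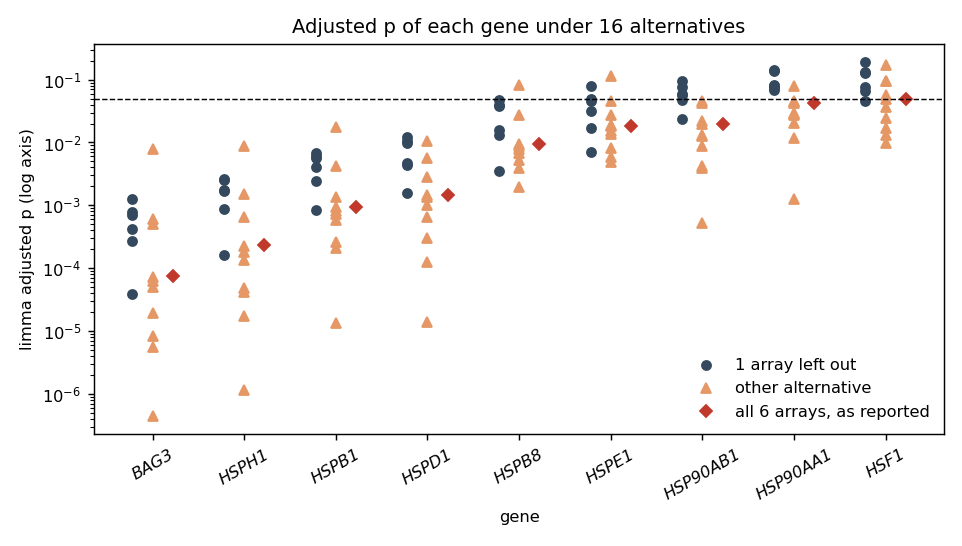
Adjusted p (log axis) of each gene for the 6 arrays as reported (diamonds), with 1 array left out (circles) and under the other alternatives (triangles); the dashed line is 0.05. BAG3, HSPH1, HSPB1 and HSPD1 stay below the line throughout, whereas HSP90AB1, HSP90AA1, HSPE1, HSPB8 and HSF1 have points on both sides.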

How the data were processed

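Expression was measured on Affymetrix whole-transcript arrays in 3 YW3-56 and 3 DMSO cultures. The deposited values are log2 expression for 33297 probe sets, and the authors made them with RMA and the affy package, per the submitters' processing notes, whose versions the sources used here do not state. RMA gives probe intensities one distribution on all arrays before probe sets are summarised, so a change shared by all transcripts cannot be seen. Array medians ran from 7.55 to 7.74.

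A single symbol was listed for 19460 probe sets, several for 1754 and none for 12083. The brightest probe set by mean of 6 arrays stood for a gene. YW3-56 was compared with DMSO over 18417 genes with limma 3.58.1 in R 4.3.3 (lmFit, eBayes, group as the only term, two-sided, Benjamini-Hochberg adjustment over all genes). Residual degrees of freedom were 4 and prior ones 4.17. A call is an adjusted p under 0.05, and counts of rises and falls in the lists are counts of calls. No filter on dim genes was used. Pair differences were tested by exact permutation over arrays. A sixth pair, HSF1 minus HSF2, had no value. In simulated data with 18417 genes, limma recovered 88 of 100 genes changed by 1 and 39 of 100 changed by 0.5 on the log2 scale, with 10 false calls. The share of genes changed in the simulation was far smaller than the 21.4% called in the data.

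Members and lists were chosen with earlier results of these data known. Beside the members, the rule named, per list, the 3 genes that changed most, with called ones first, called genes opposing their list, and the 5 genes most like BAG3 and HSF1 (44 genes in all, members included). Genes named beyond it (such as HSPA4, BAG1, CLPP, AFG3L2, HSPA9, LONP1, HSPA8 and the smaller HSP90 partners), and the values of HSF4, HSBP1, CDC37, TCP1 and other unchanged relatives, were chosen after their values were seen.

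Deviations from group means of same-numbered YW3-56 and DMSO arrays correlated over genes at 0.54, 0.37 and 0.102 for replicates 1, 2 and 3. Each exceeds 0.1, so the numbers were treated as pairs in an alternative (replicate block), although the correlation of YW3-56 replicate 2 was higher with DMSO replicate 3, at 0.42. The labels state no shared handling.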

Additional observations from a re-analysis of the deposited data

How the results depend on the processing

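Each measured gene kept its direction under all of its alternatives, 16 for each gene and 15 for HSPB8, which is below the median level. With 1 probe set per gene and groups that did not overlap, only the second quantile normalization and the centring could have turned a direction. BAG3, HSPH1, HSPB1 and HSPD1 kept their calls under all alternatives, and 23 of the 143 values of these genes under the alternatives lost a call. HSF1 was not called after a second quantile normalization (-0.25), median centring (-0.25), with all probe sets tested (-0.28) or with a per-gene variance (-0.28). The count of genes called lower was therefore 0 in these. With 1 array left out, its change ran from -0.33 to -0.22 and the count from 0 to 1. HSP90AA1 was not called with all probe sets tested (0.25), nor HSPE1 (0.58) and HSPB8 (0.66) with a per-gene variance. With 1 array left out, changes ran from 0.21 to 0.28 for HSP90AA1, 0.26 to 0.30 for HSP90AB1 and 0.42 to 0.67 for HSPE1. The count of genes called higher then ran from 5 to 7. The pair differences ran from -0.079 to 0.0058 for HSP90AA1 minus HSP90AB1 (the highest without DMSO replicate 2), -0.13 to 0.13 for HSPD1 minus HSPE1 and -0.18 to 0.078 for HSPB8 minus HSPB1 (0.078 without YW3-56 replicate 2, 0.05 without DMSO replicate 3). The BAG1 change ran from -0.14 to 0.040, the highest without DMSO replicate 1. Fewer arrays or genes tested were part of some of these alternatives, and other causes were not tested.

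Among lists, the HSP90 list had 1 fall with averaged probe sets and 1 to 2 with an array left out. The HSP110 list had 2 falls without the dimmest 20% of genes, without genes below the median, with a trended and robust prior and with array weights. BAG genes and partners had 3 rises after a second quantile normalization and with array weights, 2 after centring, without genes below the median, with the trended and robust prior and with the replicate block, and 1 to 2 with an array left out. Other small heat shock genes had 0 rises without genes below the median, a filter that removes HSPB6 (percentile 46.4). They also had 0 with a per-gene variance, where the HSPB6 call was lost, and 2 with array weights and with the block. The mitochondrial list had 2 rises after quantile normalization or centring, under both dim filters, with the trended and robust prior, array weights and the block, 0 with a per-gene variance, and 0 to 2 with an array left out. It had 3 falls after centring and 2 to 4 with an array left out. TRiC had 1 fall without genes below the median, with the trended and robust prior and with array weights. The replicate block changed the calls of no measured heat shock gene, and the paired differences kept their values by construction (BAG3 minus BAG1 1.56 ± 0.09, SE).

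Over all genes, calls ran from 1158 to 2647 for higher, against 1812 as reported, and from 1206 to 3432 for lower, against 2121. The median change of all genes moved between -0.09 and -0.01 over the alternatives. In the simulation 39 of 100 genes changed by 0.5 were recovered. It changed a far smaller share of genes than the 21.4% called in the data, and the adjusted p depends on that share. Its recovery therefore need not hold for these data. Smaller changes, such as those of HSP90AA1, HSP90AB1 and HSF1, were not simulated. The planned HSF1 minus HSF2 difference was not run, since HSF2 had no probe set.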
